A study of Mus musculus with 4 samples.

Results

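Border macrophages high in MHC class II were 166 of the 15434 cells kept from 4 single-cell libraries of mouse cortex. A member was a cell barcode with at least 5 UMIs (unique molecular identifiers, each marking 1 captured transcript) summed over the border macrophage genes Mrc1, Pf4, F13a1 and Ms4a7. It also needed fewer than 5 UMIs over the microglia genes P2ry12, Tmem119 and Olfml3, and fewer than 10 over the endothelial genes Pecam1, Flt1, Cdh5, Cldn5 and Ly6c1. Last, it needed at least 5 UMIs over the MHC class II genes H2-Aa, H2-Ab1 and H2-Eb1. Another 139 cells met every condition but the last and are called MHC class II low border macrophages, so border macrophages numbered 305 in all. The members were thus chosen by their UMI counts of these 15 genes, so the levels of those genes, and the contrast of members with MHC class II low cells, are descriptions.

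The mice were male C57BL/6N animals aged 10 months, and all received an antibody for 10 weeks. The sham library came from sham-operated mice given an isotype control antibody, and the stroke library from mice with distal middle cerebral artery occlusion (dMCAO) given the same control. The anti-VCAM1 and anti-VLA4 libraries came from dMCAO mice given an antibody to VCAM1, with which activated endothelium holds leukocytes, or to VLA4, the leukocyte integrin that binds it (encoded by Itga4 and Itgb1). Each library was 1 pool of cortex from 4 to 5 mice, which for dMCAO mice was infarct core and adjoining cortex. Sham-operated mice have no infarct core, so stroke over sham also compares unlike tissue. With 1 pool per group no difference has a replicate check and no test across samples was possible. All intervals are 95% intervals for counting error only. The stroke library is the denominator of both antibody comparisons and the numerator of the comparison with sham, so the 3 comparisons are not independent.

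Border macrophages live around the brain rather than in its tissue: in the meninges, in the choroid plexus and along penetrating vessels. MHC class II molecules display peptides from engulfed proteins to CD4+ T cells. H2-Aa with H2-Ab1 forms the peptide receptor. H2-Eb1 encodes the beta chain of a second class II molecule that C57BL/6 mice do not assemble, since they lack its alpha chain, although the transcript is made. Cd74 encodes the invariant chain that escorts the receptor, H2-DMa and H2-DMb1 encode the exchanger that loads peptides, and Ciita encodes the transactivator that switches the set on. The class II low border macrophages are commonly described as self-renewing scavenger cells, and the class II high ones as partly replaced from blood monocytes, which use CCR2 to enter tissue.

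Promoters of class II genes are known for conserved boxes that the transactivator complex reads, and 3 are shown: those of H2-Aa and H2-Eb1, genes of the rule, and that of H2-DMb1, a class II gene outside it. Sequences run from 250 bases before to 50 after the RefSeq gene start (GRCm38.p6), 5′ to 3′ along the gene. Capitals mark the Y box core ATTGG on either strand, which reads CCAAT on the reverse strand, and the 9-letter string GATGATGCT, which overlaps the X box.
H2-Aa: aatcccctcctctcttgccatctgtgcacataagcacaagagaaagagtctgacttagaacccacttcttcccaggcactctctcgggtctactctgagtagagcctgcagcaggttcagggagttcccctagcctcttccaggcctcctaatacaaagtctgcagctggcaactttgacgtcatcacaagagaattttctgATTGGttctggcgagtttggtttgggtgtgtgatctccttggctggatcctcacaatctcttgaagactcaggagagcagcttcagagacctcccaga
H2-Eb1: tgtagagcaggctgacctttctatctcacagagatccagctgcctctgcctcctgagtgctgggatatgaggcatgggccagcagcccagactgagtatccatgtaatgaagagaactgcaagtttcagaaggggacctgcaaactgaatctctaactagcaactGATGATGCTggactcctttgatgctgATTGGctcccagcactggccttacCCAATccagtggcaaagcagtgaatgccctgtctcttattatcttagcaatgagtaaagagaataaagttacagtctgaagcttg
H2-DMb1: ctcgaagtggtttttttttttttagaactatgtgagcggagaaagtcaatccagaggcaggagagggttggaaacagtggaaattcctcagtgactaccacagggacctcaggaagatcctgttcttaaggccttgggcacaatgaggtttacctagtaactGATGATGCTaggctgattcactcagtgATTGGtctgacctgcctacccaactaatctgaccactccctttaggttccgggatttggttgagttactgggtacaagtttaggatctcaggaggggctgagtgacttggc

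The H2-Aa window is chr17:34287774-34288073 on the minus strand, the H2-Eb1 window is chr17:34305617-34305916 on the plus strand and the H2-DMb1 window is chr17:34152941-34153240 on the plus strand. ATTGG began 48 bases before the start of H2-Aa, 59 before that of H2-Eb1 and 61 before that of H2-DMb1. A second copy, on the reverse strand, lay 35 bases before the H2-Eb1 start. GATGATGCT began 85 and 88 bases before H2-Eb1 and H2-DMb1 and was not in the H2-Aa window. Searched on both strands, ATTGG was in 12289 of 32851 RefSeq promoter windows of this length (37.4%), GATGATGCT in 90 (0.274%) and both in 36 (0.110%). These matches describe letters and were not tied to any measurement here.

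Depth and overlap of the libraries bear on every value that follows. The members held 440676, 441665, 195340 and 228546 UMIs in the sham, stroke, anti-VCAM1 and anti-VLA4 libraries, of 10008987, 17130182, 25099141 and 34721356 UMIs over all barcodes. A member had a median of 7889.5, 6995, 5687 and 6460 UMIs, against 3047, 3917, 4816 and 3794 in MHC class II low border macrophages, so a fixed UMI minimum was easier to reach in members than in those cells. The deepest member alone held 8.30%, 4.12%, 10.1% and 7.05% of member UMIs. Sham and stroke shared 59 barcodes, of which 54 were over 10 times deeper in sham, with a median stroke copy at 3.16% of the sham depth. Other pairs of libraries shared 1 to 8. Of the members, 6 in sham and 1 in stroke carried a shared barcode, and the stroke one had 954 UMIs against 36568 under the same barcode in sham. Doublet calling with Scrublet marked 9, 24, 58 and 124 kept cells and no member.

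The label was set beside its markers, after thinning each cell to 2000 UMIs to equalise depth. Leaving out shallower cells kept 160 members and 110 MHC class II low cells. Mrc1, the mannose receptor, had a UMI in 70.0% of members and 0.0952% of endothelial cells, and H2-Aa in 96.2% and 0.460%. F13a1, a coagulation factor subunit made by tissue macrophages, was found in 73 thinned members (45.6%), both following from the choice of members, as for Mrc1 and H2-Aa. Mgl2, a galactose-binding lectin and the one of these markers outside the rule, was in 50 (31.2%), against 10.0% of MHC class II low cells and 0.0317% of endothelial cells, whose median depths before thinning were 3931 to 4591 UMIs. Before thinning, 141 of the 166 members had a Pf4 or Ms4a7 UMI and 60 had all 4 border genes, while 28 had only 1 of them. The rule also admits cells with few border transcripts: 29 members had a border sum of 5 or 6. A further 41 cells met the other conditions with a border sum of 3 or 4, and 35 members lay just under the microglia limit at 3 or 4 UMIs, with 22 cells just over it at 5 to 9.

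**Figure D1:**
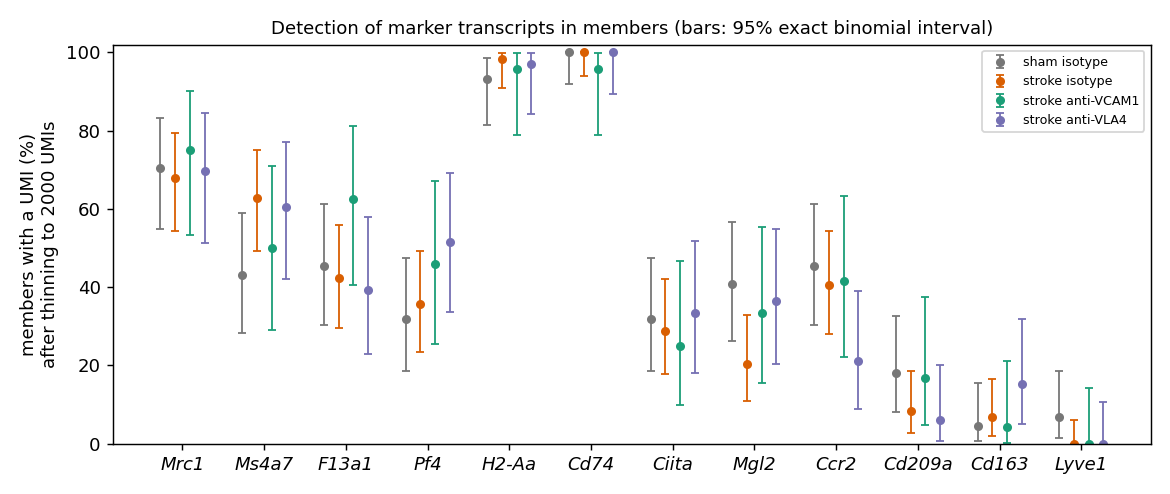
Percent of members with at least 1 UMI of each marker after thinning to 2000 UMIs, by library; points are shares and bars 95% exact binomial intervals (counting error only). H2-Aa and Cd74 were found in nearly every member of each library, Mrc1 in 67.8% to 75%, and the scavenger receptor genes Cd163 and Lyve1 in 0% to 15.2%.

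MHC class II split the border macrophages at their extremes rather than evenly. Of the 305 cells, 112 had no UMI of H2-Aa, H2-Ab1 or H2-Eb1, 20 had 1 or 2, and 7 had 3 or 4. Just above the threshold, 12 had 5 to 9 and 33 had 10 to 49, while 121 had 50 or more. The cells next to the threshold were therefore few beside those at 0 or at 50 and above. Members ranged from 5 to 700 class II UMIs, with medians of 166, 131, 104 and 127.5 in the sham, stroke, anti-VCAM1 and anti-VLA4 libraries. Per 10000 UMIs of the cell the medians were 207, 181, 153 and 194, and the highest MHC class II low cell reached 21.7. This split uses the transcripts of the rule, so it describes the cells and tests nothing.

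**Figure D2:**
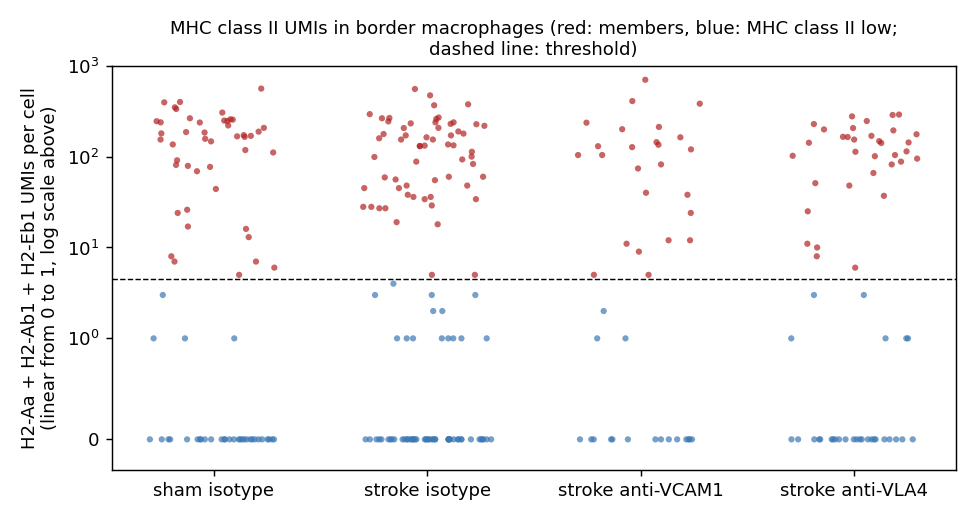
Summed UMIs of H2-Aa, H2-Ab1 and H2-Eb1 in each border macrophage (y axis linear from 0 to 1 and logarithmic above), by library; each point is 1 cell, red for members and blue for MHC class II low cells, with the dashed line at the threshold. In all 4 libraries most points lie at 0 or above 50, and few lie near the line.

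Members were a smaller part of the anti-VCAM1 and anti-VLA4 libraries than of the stroke library. They were 46 of 1525 kept cells in sham, or 3.02% (2.22 to 4.00), and 61 of 2856 in stroke, or 2.14% (1.64 to 2.74). They were 25 of 4720 with anti-VCAM1, or 0.530% (0.343 to 0.781), and 34 of 6333 with anti-VLA4, or 0.537% (0.372 to 0.749). The antibody libraries lay under both isotype libraries, with no overlap of their intervals, and the 2 isotype intervals overlapped. Against stroke, the share under VCAM1 blockade was 4.03-fold lower (log2 ratio -2.01, -2.75 to -1.32). Under VLA4 blockade it was 3.98-fold lower (log2 ratio -1.99, -2.64 to -1.36). Against sham, the stroke share had a log2 ratio of -0.50 (-1.07 to 0.087), an interval that holds 0. It was 0.037 when the rule was applied after thinning to 2000 UMIs.

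The composition of the libraries moved with these shares. Cells with endothelial transcripts numbered 545, 636, 2490 and 3263 of the kept cells in the same order, and microglia 582, 1168, 1472 and 1953. Cells had been stained for CD31 and CD45, and the labels do not say how those fractions were collected or mixed, so the sort could set such shares and its part was not tested. Taken over cells with immune transcripts only, members were 5.18%, 3.18%, 1.44% and 1.43%. On that base the anti-VCAM1 and anti-VLA4 log2 ratios were -1.14 (-1.88 to -0.44) and -1.15 (-1.80 to -0.51), smaller in size but still under 0, and the ratio of stroke over sham was -0.70 (-1.30 to -0.10).

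Within the border macrophages the balance of class II high and low cells had overlapping intervals in the 4 libraries. Members made up 58.2% of border macrophages in sham (46.6 to 69.2) and 50.4% in stroke (41.2 to 59.6). The anti-VCAM1 library had 59.5% (43.3 to 74.4) and the anti-VLA4 library 54.0% (40.9 to 66.6). With the rule applied after thinning to 2000 UMIs, members were fewer than MHC class II low cells in each library, at 34.1%, 32.9%, 34.6% and 44.2%. The log2 ratios without thinning were -0.21 (-0.78 to 0.38) for stroke over sham, 0.24 (-0.49 to 0.93) for anti-VCAM1 over stroke and 0.098 (-0.55 to 0.73) for anti-VLA4 over stroke. No difference was detectable at this depth, and changes up to the bounds of these intervals are not excluded. MHC class II low border macrophages were 2.16%, 2.10%, 0.360% and 0.458% of kept cells, so both kinds were scarcer in the antibody libraries.

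**Figure D3:**
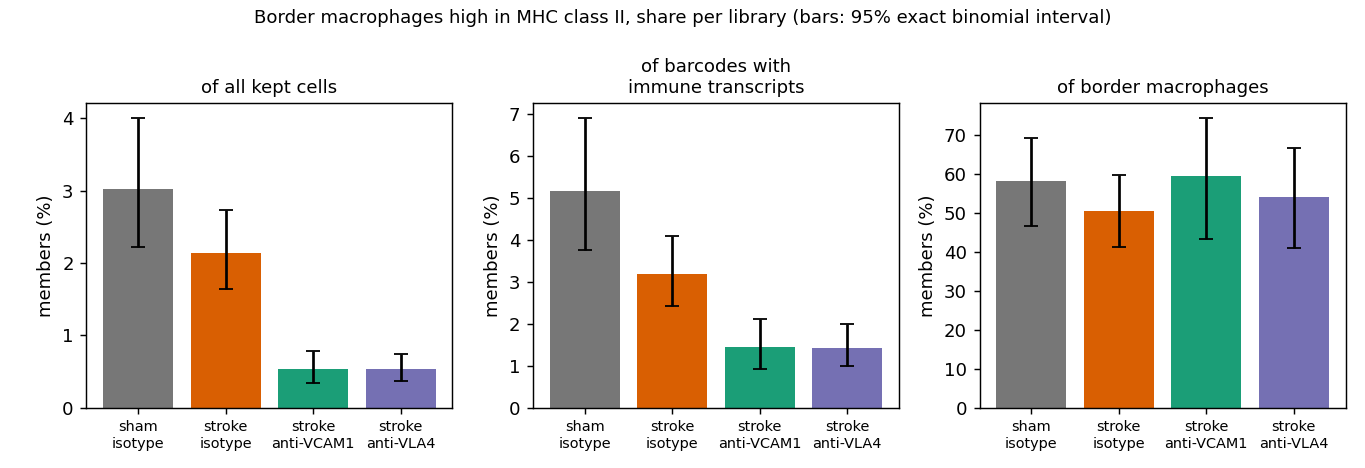
Members as a percent of kept cells, of cells with immune transcripts and of border macrophages, by library; bars are shares and lines 95% exact binomial intervals (counting error only). The antibody libraries are lower than stroke on the first 2 bases, 0.530% and 0.537% against 2.14% of kept cells, and all 4 intervals overlap on the third.

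None of the 8 measured class II presentation genes outside the rule differed as much as 2-fold in members between the libraries compared, a count near the background over all genes given below. In CPM (a gene's UMIs scaled to the summed UMIs of all members of the library), H2-Aa was at 5900 in sham, 7064 in stroke, 6276 with anti-VCAM1 and 6856 with anti-VLA4. H2-Eb1 was at 6354, 7612, 6972 and 7132. Cd74 was at 15780, 20305, 18455 and 20018, with log2 ratios of 0.36 for stroke over sham, -0.14 for anti-VCAM1 and -0.02 for anti-VLA4 over stroke. H2-Aa and H2-Eb1 are genes of the rule, so nothing is read from their levels. Those of Cd74 span less than a doubling, and sham was lowest. The peptide exchanger followed suit: H2-DMa was at 561, 568, 573 and 788 CPM, and H2-DMb1, whose reads could be split with its near copy H2-DMb2, at 642, 693, 737 and 774. The transactivator Ciita was at 254 (209 to 306), 165 (130 to 208), 128 (82.8 to 189) and 197 (144 to 263) CPM, highest in sham, whose interval overlapped that of anti-VLA4 but not the other 2.

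A gene was counted as past the fold in a comparison when its log2 ratio reached 1 or -1 with at least 50 UMIs over both libraries. Of the class II presentation list, 11 genes were measured, 3 of them genes of the rule (H2-Aa, H2-Ab1 and H2-Eb1), from which nothing is read. None of the 8 others was past it in any of the 3 comparisons, with medians of 0.22, -0.06 and 0.12 beside -0.07, -0.01 and -0.01 over all genes. Over all genes, 5.26%, 5.43% and 4.26% were past it in either direction, so a count of 0 in 8 is near that background. In the anti-VCAM1 library 1 cell held 20.5% of the class II UMIs. The costimulatory gene Cd86 was at 744, 496, 578 and 674 CPM, and Cd83, a surface protein of activated antigen presenting cells, at 1586, 1361, 1357 and 1466.

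Members and MHC class II low border macrophages differed in much more than class II, as ratios taken within each library show. Of the genes outside the rule, 283 of 5269 (5.37%) had a mean log2 ratio of at least 1 with the same sign in 4 of 4 libraries, and 474 (9%) a mean of at most -1. Since depth differs between the 2 kinds of cell, the counts were taken again after thinning. They were then 158 and 203 of the 1956 genes that could be tested (8.08% and 10.4%). The class II genes outside the rule are given first. H2-DMb1 had log2 ratios of 3.83, 3.75, 3.67 and 4.03 (mean 3.82 ± 0.15, SD over 4 libraries), and H2-DMa 2.43, 2.65, 1.40 and 2.93. Cd74 had 7.87, 6.61, 7.64 and 5.48, and Ciita had 255 UMIs in 87 members against 5 UMIs in 4 MHC class II low cells.

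Some genes of inflammation and of lately arrived monocytes were higher in members, and others were not. Ccr2, the monocyte chemokine receptor, had 656 UMIs in 86 members against 54 in 9 of the MHC class II low cells. After thinning it was found in 38.1% of members, 5.45% of MHC class II low cells and 0.0952% of endothelial cells. Mgl2 was higher by 2.95, 2.01, 3.29 and 3.79 on the log2 scale. Il1b, the cytokine interleukin 1 beta, was higher by 3.05, 2.29, 3.09 and 0.71, least in the anti-VLA4 library, where MHC class II low cells held 717 CPM against 103 to 214 in the others. Tnfaip3, an inhibitor of NF-kappaB signalling, was higher by 1.86, 1.03, 1.79 and 2.11, and Cxcl16, a membrane-bound chemokine, by 1.40, 2.57, 1.22 and 1.22. Cd52, a small surface glycoprotein of leukocytes, was higher by 1.80, 1.58, 0.73 and 2.54. Tnip3, a partner of TNFAIP3 that is also in the list of dendritic cell markers, had 474 UMIs in 41 members and 1 UMI in all MHC class II low cells. Other genes at this extreme were Slamf7, with 247 UMIs against 4, Slamf9, with 204 against 5, and Clec4b1, with 140 against 3. Of the list of monocyte and recent entry genes, 3 of 15 measured were past the fold, all higher, and the median was 1.77, or 0.93 with groups at 0 set to 3 counts, beside -0.21 over all genes. Of 13 measured inflammatory cytokine and NF-kappaB genes, 3 were past it, all higher.

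Other genes of these kinds lay the opposite way. Of 8 measured monocyte and neutrophil markers 5 were lower in members, with a median of -0.75, and only Ccr2 was past the fold. With all libraries summed, Ly6c2, a surface protein of inflammatory monocytes, was at 38.3 CPM in members and 90.3 in MHC class II low cells, and Plac8, another monocyte transcript, at 92.6 and 184. The cytokine gene Tnf was at 209 and 349 CPM. The ratios of these 3 genes did not have the same sign in every library. Of 13 measured chemokine ligands, 4 were lower past the fold (Ccl2, Ccl7, Ccl12 and Ccl24) and 2 higher (Cxcl10 and Cxcl16). Ccl2 was at 227 CPM in members and 1297 in MHC class II low cells, Ccl7 at 205 and 1331, and Ccl12 at 500 and 1198.

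Dendritic cell markers moved with this contrast. Of 5 measured, 4 were higher past the fold (Cd209a, Batf3, Tnip3 and Naaa) and 1 was lower (Zbtb46), with a median of 2.12. With all libraries summed, Zbtb46, a transcription factor gene, had 34 UMIs in members and 17 in MHC class II low cells, or 26.0 and 29.0 CPM. Fscn1, with too few UMIs to be measured, was at 3.06 and 34.1 CPM, and Flt3, also too few, at 27.6 and 1.70. Cd209a was nonetheless found in a smaller share of members, 15.7% against 25.9% of MHC class II low cells. After thinning these shares were 11.9% and 20.0%. The sum of the 15 listed was 1480, 500, 1413 and 744 CPM in members and 355, 183, 297 and 289 in MHC class II low cells. Xcr1 and Ccl22 were at 0 in all members. Members were left out by a narrower dendritic set: Flt3, Zbtb46, Cd209a, Clec9a, Xcr1, Ccr7 and Fscn1. Batf3, Tnip3 and Naaa are not in it. Without members with 3 or more UMIs of that set, 223 of 4645 genes were higher past the fold (4.80%), of which 194 were among the 283.

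The scavenger and perivascular list was lower in members throughout, and the border identity list in most genes. Outside the rule, 14 of 19 measured border identity genes were lower, 9 of them past the fold. The other 5 were higher, 2 of them past it (Mgl2 and Clec12a). All 11 measured genes of the scavenger and perivascular list were past the fold and lower, with a median log2 ratio of -2.61. Cd163, the haemoglobin scavenger receptor, had ratios of -3.93, -3.01, -2.49 and -1.0. Folr2, a folate receptor, had -3.17, -4.50, -2.43 and -4.36, and the lectin gene Cd209f had -3.45, -4.06, -2.49 and -2.90. Lyve1, a hyaluronan receptor, had 15 UMIs in 4 members against 240 UMIs in 52 MHC class II low cells. Stab1, a clearance receptor, was at 209, 274, 256 and 332 CPM in members and at 1782, 1784, 972 and 1900 in MHC class II low cells (mean log2 ratio -2.55 ± 0.49, SD over 4 libraries). Maf, a transcription factor of resident macrophages, had -1.88, -1.79, -1.37 and -1.18, and Gas6, a bridge to dying cells, -2.26, -2.06, -1.25 and -1.46. Slc40a1, the iron exporter, had 13 UMIs against 97, and the chemokine Ccl24 had 51 against 377.

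P2rx7, the ATP-gated channel, was among the genes with the 15 lowest ratios. It was at 302, 90.6, 143 and 411 CPM in members and at 3054, 1994, 1887 and 3632 in MHC class II low cells, a mean log2 ratio of -3.66 ± 0.58 (SD over 4 libraries). Every member value lay under every MHC class II low value. The border genes of the rule also differed: Mrc1 had log2 ratios of -1.94, -2.06, -1.55 and -1.47 and F13a1 -2.61, -2.47, -1.50 and -1.81, while Ms4a7 had -1.59, -0.14, -1.14 and -1.23. Transcripts of both antibody targets were found in border macrophages, and their proteins were not measured. Vcam1 had a UMI in 33 members (19.9%) and in 68 MHC class II low cells (48.9%), and Itga4 in 90 (54.2%) and 67 (48.2%). Vcam1 was at 163, 115, 61.4 and 503 CPM in members and at 540, 553, 835 and 773 in MHC class II low cells. Itga4, the alpha chain of VLA4, was at 191, 161, 138 and 153 CPM in members, with intervals that overlap across the 4 libraries, and at 281, 195, 263 and 168 in MHC class II low cells. Itgb1, its beta chain, was at 256, 256, 184 and 263 CPM in members.

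**Figure D4:**
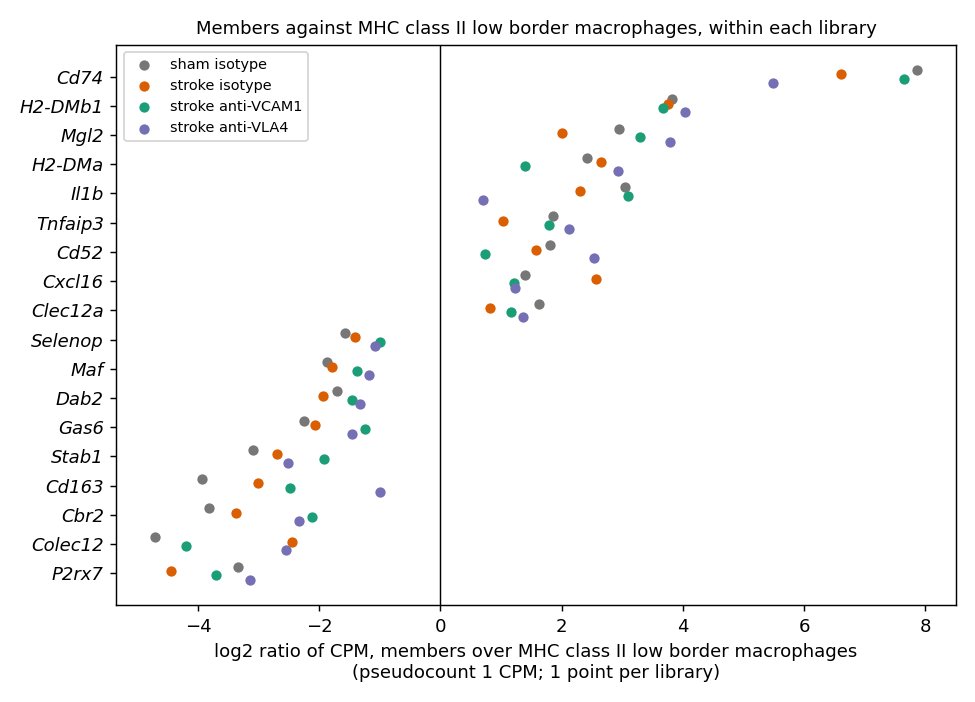
Log2 ratio of CPM in members over MHC class II low border macrophages within each library (pseudocount 1 CPM), 1 point per library and gene. The class II and inflammatory genes drawn, with Mgl2, Cd52 and Clec12a, lie to the right of 0. The scavenger and resident macrophage genes drawn lie to the left. Genes were drawn from those with 4 of 4 libraries on one side, so that side being shared follows from the choice. Cd163 spans -3.93 to -1.0 and H2-DMb1 3.67 to 4.03.

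The members were not uniform, and some carried markers of other myeloid cells. Of 166 members, 86 had a Ccr2 UMI: 27 in sham, 33 in stroke, 16 with anti-VCAM1 and 10 with anti-VLA4. After thinning these were 45.5%, 40.7%, 41.7% and 21.2% of cells, with overlapping intervals for stroke (28.1 to 54.3) and anti-VLA4 (8.98 to 38.9). A Cd163 or Lyve1 UMI was found in 31 members. Another 25 had neither Pf4 nor Ms4a7, and 22 of these had Ccr2. At least 3 UMIs of the narrower dendritic set were found in 26 members: 26.1% of those in sham, 8.20% in stroke, 24.0% with anti-VCAM1 and 8.82% with anti-VLA4. Over the 15 listed dendritic markers, 22, 14, 9 and 7 members reached 3 UMIs in the same order. Of the defining genes, Flt3, the growth factor receptor of dendritic cells, had 36 UMIs in 25 members. Cd209a, a dendritic cell lectin also seen here in 36 MHC class II low cells, and Tnip3 made up much of the summed level given above, each with 474 UMIs in members.

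Microglia markers were found in nearly every member: 45 of 46, 59 of 61, 25 of 25 and 33 of 34 had a UMI of at least 1 of the 10. The 7 of these outside the rule summed to 915, 1112, 1029 and 1330 CPM in members, to 1664, 1932, 2025 and 2188 in MHC class II low cells and to 775 to 951 in endothelial cells. Members were thus lower than MHC class II low cells in each library and above endothelial cells. With all libraries summed, Cx3cr1 was at 629 CPM in members and Fcrls at 226, while Sparc was at 9.19 and Sall1 at 1.53. The sums were not set beside those of microglia.

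Markers of several other cell types were lower or lay in single cells. The 11 T and NK markers summed to 4.38 to 49.8 CPM, with Cd8a, Cd8b1 and Ncr1 at 0, and the 10 B and plasma cell markers to 113 to 310. The 10 neural and glial markers summed to 30.6 to 158 CPM, with Mog, Stmn2, Snap25 and Syt1 at 0. The 11 endothelial markers, 5 of them in the rule, summed to 254 to 455 CPM. The monocyte and neutrophil markers summed to 7155 CPM in sham and to 420 to 725 in the others. In sham 1 cell held 88.2% of that sum, and without it the level was 846. S100a8 and S100a9 account for that cell, with 99.8% and 100% of the sham UMIs of each gene in 1 member. The pericyte and fibroblast markers summed to 683 CPM with anti-VLA4 and to 2.26 to 15.4 elsewhere, with 98.7% of the anti-VLA4 sum in 1 cell. Lymphocyte markers reached 3 UMIs in 30 members, but in 2 once Ighm was left out. Ighm, the heavy chain of IgM, had a UMI in 86 of the 166 members and in 36 MHC class II low cells.

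Stroke over sham, the comparison that asks what differed late after the occlusion under the same control antibody, was led by lower chemokines in members. Over all genes, 26 of 2910 (0.893%) were higher past the fold and 127 (4.36%) lower. Ccl2, a ligand of CCR2, was at 318 CPM in sham, 65.7 in stroke, 174 with anti-VCAM1 and 411 with anti-VLA4. The stroke value was the lowest, and its interval of 44.0 to 94.3 overlapped none of the others, the nearest being 121 to 243 with anti-VCAM1. Its log2 ratio of stroke over sham was -2.26 (-2.90 to -1.69), and that of Ccl7, another CCR2 ligand, was -3.45 (-4.32 to -2.75). Ccl12 was at 656 and 281 CPM, a log2 ratio of -1.22 (-1.54 to -0.92). Of the 12 measured chemokine ligands, 6 were past the fold and lower (Ccl2, Ccl7, Ccl8, Ccl12, Cxcl9 and Cxcl10) and 1 higher (Ccl9), with a median of -0.89 beside -0.07 over all genes. The sham UMIs of Cxcl9 and Cxcl10 lay mostly in 1 cell, 100% and 80.4% of them. Without the cell richest in chemokines in each library, the summed level was 4561 CPM in sham and 2828 in stroke. In MHC class II low cells the sum over all cells was also lower in stroke, at 6492 CPM against 9650 in sham, so the direction was not particular to members.

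Other genes lower in stroke members were Tnip3 at -2.79 (-3.29 to -2.34), P2rx7 at -1.73 (-2.28 to -1.22) and Gda, which encodes guanine deaminase, at -1.56 (-2.22 to -0.96). Ccl7, Tnip3, Ccl2 and Gda were past the fold in each of the 13 settings that could be run for every gene, and the other 6 of the 10 lowest were not. P2rx7 was at -0.43 in 1 of them. Of 19 measured interferon-stimulated genes, 8 were lower past the fold, with a median of -0.47, but 1 sham cell held 38.4% of the summed UMIs of the list. Ifit3 shows it: its ratio was -1.66, 76.2% of its sham UMIs lay in 1 cell, and without the top cell of each library the ratio was -0.0032. Only 3 of the 15 listed dendritic markers were measured: 2 were lower past the fold, Tnip3 and Cd209a, and 1 was higher but not past it. Cd209a had a log2 ratio of -1.44 (-1.87 to -1.04). The part of dendritic markers in the other ratios was not tested beyond leaving out members with 3 or more UMIs of the narrower dendritic set.

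Among genes higher in stroke members, Ctsd, the lysosomal protease cathepsin D, was at 263 CPM in sham and 661 in stroke, a log2 ratio of 1.33 (1.01 to 1.65). Abca1, the cholesterol exporter, was at 109 and 231 CPM, a ratio of 1.08 (0.58 to 1.61), and was the only one of the 10 highest past the fold in each of the 13 settings. Rgs1, a brake on G protein signalling that is also induced by tissue dissociation, had 1.41 (1.03 to 1.81), and the heat shock gene Hspa1a 1.28 (0.83 to 1.76). Ms4a7, a rule gene, was at 288 and 740 CPM, a ratio of 1.36 (1.06 to 1.67). Pltp, a phospholipid transfer protein, had 1.17, but 0.56 without its top cell. Of 17 measured lysosomal genes, 14 were higher, with a median of 0.37, although only Ctsd was past the fold. Apoe, a lipid carrier, was at 8362 and 13241 CPM. The dissociation stress genes moved too: 18 of 23 were lower in stroke, with a median of -0.50, and what they contribute was not tested.

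Anti-VCAM1 over stroke, which asks what differed in members under blockade of VCAM1, showed 30 of 2024 genes higher past the fold (1.48%) and 80 lower (3.95%), from 25 cells. Genes of interferon response made up part of the lower set. Epsti1, an interferon-induced gene, was at 266, 290, 81.9 and 228 CPM in the 4 libraries, a log2 ratio of -1.81 (-2.67 to -1.07) against stroke. Sp100, a nuclear body protein induced by interferon, was at 152, 217, 71.7 and 162 CPM, a ratio of -1.59 (-2.52 to -0.78). The anti-VCAM1 library was the lowest of the 4 for both genes. Of 24 listed interferon-stimulated genes, 8 were measured. Of these 8, 5 were lower past the fold, with a median of -1.11 beside -0.01 over all genes. Among the 5 were Isg15, Irf1, Ifi204 and Ifi211, and each of the 5 had under 100 UMIs over both libraries. Bst2, Slfn2 and Ifi207, the measured genes with at least 100 UMIs, had ratios of -0.53, -0.22 and 0.02. The list was summed to 4189, 2373, 1459 and 4673 CPM, or to 2582, 2221, 1285 and 2988 without the top cell of each library. In MHC class II low cells it summed to 3956, 2894, 1910 and 3623 CPM, so the anti-VCAM1 library was lowest there as well.

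Ccl4, an inflammatory chemokine, was at 1484, 1223, 404 and 1002 CPM, a ratio of -1.59 (-1.96 to -1.25) for anti-VCAM1, and had a UMI in 6 of the 25 members there. Pde7b, a cyclic AMP phosphodiesterase, had -2.62 (-3.73 to -1.72) and Rgs1 -1.68 (-2.30 to -1.12), with 62.1% of the anti-VCAM1 Rgs1 UMIs in 1 cell. Pde7b, Epsti1, AW112010, Rgs1, Ccl4 and Sp100 were past the fold in each of the 13 settings. Of 10 measured complement and Fc receptor genes 9 were lower with anti-VCAM1, with a median of -0.46. For stroke over sham 8 of 10 were higher (median 0.20), and for anti-VLA4 over stroke 9 of 10 (median 0.23). None was past the fold in any of the 3, beside 5.26%, 5.43% and 4.26% of all genes for stroke over sham, anti-VCAM1 and anti-VLA4. C1qa, a chain of complement C1q, was at 2399, 3335, 2089 and 4266 CPM, and its anti-VCAM1 ratio was -0.67, or -0.19 with cells weighted equally and -0.01 after thinning.

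Higher with anti-VCAM1 were Cd209a at 2.14 (1.71 to 2.59), S100a10, a membrane adaptor, at 1.61 (1.13 to 2.12) and the transcription factor gene Klf2 at 1.5 (1.07 to 1.94), and these 3 were past the fold in each of the 13 settings. Cd209a was at 420, 154, 681 and 385 CPM, and 51.1% of its anti-VCAM1 UMIs lay in 1 of 6 cells. Klf2, which is also a dissociation stress gene, was at 238, 186, 527 and 429 CPM. S100a10 was at 200, 138, 425 and 127 CPM, highest with anti-VCAM1. Tnip3 had 2.28 (1.76 to 2.84), from 95 UMIs in 5 cells, and was at 0.67 in 1 setting. Socs3, a feedback inhibitor of cytokine signalling, had 1.40 (0.85 to 1.98). The share of members with dendritic markers was 24.0% here against 8.20% in stroke, with overlapping intervals as given above. The dissociation stress genes had a median of 0.41, with 16 of 22 higher. The part of either in these ratios was not tested.

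Anti-VLA4 over stroke, which asks the same under blockade of VLA4, showed 40 of 2135 genes higher past the fold (1.87%) and 51 lower (2.39%), from 34 cells. Chemokines led the higher genes. Ccl8, a monocyte chemoattractant, was at 132, 13.6, 41.0 and 468 CPM, a log2 ratio of 5.01 (3.94 to 6.58) against stroke, from 107 UMIs in 9 cells against 6 UMIs in 3 cells. Ccl2 had a ratio of 2.63 (2.03 to 3.30), and Ccl7, at 36.2 CPM in stroke and 280 with anti-VLA4, one of 2.92 (2.14 to 3.84). Ccl12, at 713 CPM with anti-VLA4, had 1.34 (1.00 to 1.69), or 0.92 without the top cell. The anti-VLA4 and sham libraries were both above stroke for these 4 genes, and the stroke library is shared by the 2 comparisons. Of 12 measured chemokine ligands, these 4 with Cxcl9 and Cxcl10 were higher past the fold, and Ccl9 and Cxcl2 lower, with a median of 0.62. The 20 listed ligands summed to 5369, 3258, 2662 and 5001 CPM, with 36.0% of the anti-VLA4 sum in 1 cell. Without the top cells the sum was 4561, 2828, 2165 and 3203. In MHC class II low cells it was 9650, 6492, 2791 and 12553 CPM. A higher sum in sham and anti-VLA4 than in stroke was therefore not particular to members.

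**Figure D5:**
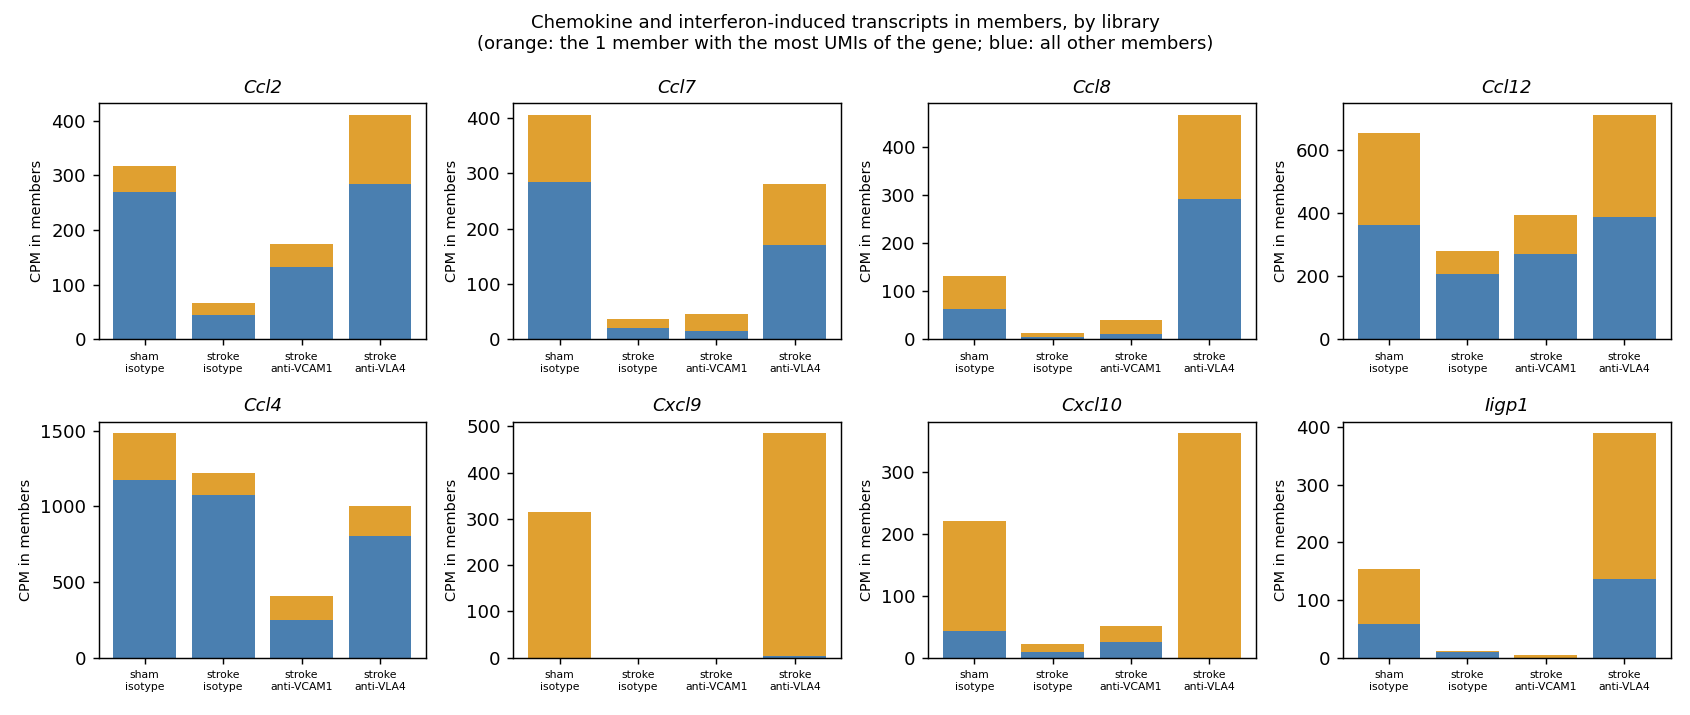
CPM of 8 chemokine and interferon-induced genes in members by library; each bar is the summed level, split into the member with the most UMIs of that gene (orange) and all other members (blue). Ccl2, Ccl7, Ccl8 and Ccl12 are higher in sham and anti-VLA4 than in stroke also in the blue part, whereas Cxcl9 and Cxcl10 with anti-VLA4 lie almost wholly in 1 cell.

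Some interferon-induced chemokines came from single cells and say little of the members as a group. Cxcl9, a ligand of CXCR3, had 139 UMIs in 1 sham member and 111 UMIs in 2 anti-VLA4 members, of which 99.1% lay in 1, and 0 UMIs in the stroke and anti-VCAM1 members. All 83 anti-VLA4 UMIs of Cxcl10 lay in 1 member. Of the 89 anti-VLA4 UMIs of Iigp1, an interferon-induced GTPase, 65.2% lay in 1 of 6 cells. Irf1, a transcription factor induced by interferon, was spread more widely: it was at 141 CPM in sham, 46.1 with anti-VCAM1 and 402 with anti-VLA4, with 45 UMIs in 20 stroke members and 92 UMIs in 17 anti-VLA4 members, and had a ratio of 1.97 (1.45 to 2.53).

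Vcam1 itself, whose levels are given above, had a ratio of 2.11 (1.64 to 2.63) for anti-VLA4 over stroke, from 115 UMIs in 7 cells with 33.9% in 1. As a share of thinned cells it was 11.4%, 15.3%, 25% and 15.2%, with overlapping intervals, so a wider spread over cells was not detectable. For anti-VCAM1 over stroke the ratio was -0.90 (-1.95 to 0.02). P2rx7 had 2.17 (1.63 to 2.75) with anti-VLA4, or 1.32 without its top cell. Trf, which encodes transferrin, was at 352 CPM in sham, 425 with anti-VCAM1 and 910 with anti-VLA4, a ratio over stroke of 1.21 (0.92 to 1.52), and was found in 32 of 34 anti-VLA4 members. Fermt3, an activator of integrins, was at 159, 106, 107 and 258 CPM, a ratio of 1.27 (0.70 to 1.86), found in 25 of 34. The DNA repair gene Rad51b had 2.45 (1.83 to 3.14), from 80 UMIs in 9 cells. Pf4, a rule gene, was at 449, 315, 568 and 722 CPM.

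Lower with anti-VLA4 were Lars2, a mitochondrial tRNA synthetase, at -1.97 (-2.83 to -1.22), Arl4c, a small GTPase, at -1.78 (-2.72 to -0.98), and Rgs1 at -1.37 (-1.89 to -0.89). Lgals3, galectin 3, was at 406, 534, 471 and 228 CPM, a ratio of -1.23 (-1.69 to -0.79) that was -0.92 in 1 setting. Ctsd, at 284 CPM with anti-VLA4, had -1.21 (-1.63 to -0.82), or -0.83 after thinning. Ccr2 was at 554, 523, 512 and 354 CPM, a ratio of -0.56 (-0.94 to -0.19) that is not past the fold, although after thinning it was -1.16. Of the 10 highest and 10 lowest genes named by the rule for this comparison, 8 and 7 were past the fold in each of the 13 settings. The dissociation stress genes had a median of 0.33, with 18 of 22 higher, and their part was not tested.

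Other groups held few genes past the fold. Over all genes, 5.26%, 5.43% and 4.26% were past it in either direction in the 3 comparisons, so a count of 0 in a list of this size is near that background. Il1b was at 1046, 1055, 886 and 1173 CPM, with ratios of 0.01, -0.25 and 0.15 in the 3 comparisons. Mrc1 was at 974, 849, 916 and 1203 CPM and F13a1 at 592, 595, 686 and 735. None of the 9, 8 and 8 measured class I presentation genes was past the fold in the 3 comparisons, with medians of 0.03, -0.12 and 0.13. Cell cycle genes were too few to read: 1 of 16 had 50 UMIs over the libraries compared.

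The lists not yet described gave the following counts past the fold for stroke over sham, anti-VCAM1 over stroke and anti-VLA4 over stroke. The background for each count, here and below, is the share of all genes past the fold in either direction: 5.26%, 5.43% and 4.26%. Of the border identity genes, 1 of 19 was higher (Ms4a7), then 0 of 18, then 3 of 19 (Pf4, the scavenger receptor gene Cd36 and the chemokine receptor gene Ccr1), with medians of 0.01, 0.05 and 0.29. These counts and medians include the border genes of the rule (Mrc1, Pf4, F13a1 and Ms4a7), from which nothing is read. Only 3, 2 and 3 of the 15 scavenger and perivascular genes reached 50 UMIs, and 1 was past the fold: Cd163 with anti-VLA4, at 1.90 (1.20 to 2.68), from 49 UMIs in 7 cells. Cd163 thus stood at 40.9, 56.6, 35.8 and 214 CPM in members. Of the monocyte and recent entry genes, 2 of 13 were higher and 1 lower, then 3 of 11 higher and 2 lower, then 0 of 10 higher and 1 lower, with medians of -0.32, -0.03 and -0.32. The lysozyme gene Lyz1, in this list, had 82.2% of its stroke UMIs in 1 cell.

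Of the disease-associated and lipid genes, 1 of 9 was higher (Abca1), then 1 of 9 lower (Plin2, a lipid droplet protein), then 1 of 9 lower (Lgals3). Iron and haem genes gave 0 of 7 and 0 of 4, then 1 of 6 higher, the ferroxidase gene Cp at 1.32 (0.68 to 2.00). None of the 10, 9 and 9 measured inflammatory cytokine and NF-kappaB genes was past the fold, with medians of -0.30, 0.44 and 0.15. Of the costimulation genes, 1 of 5 was lower in stroke: Cd80, a ligand of CD28, at 95.3 CPM in sham and 27.2 in stroke, a ratio of -1.77 (-2.87 to -0.86). With anti-VCAM1 Tnfsf9 was higher and Havcr2 lower of 4, and with anti-VLA4 none of 3 was past the fold.

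Adhesion genes gave 0 of 12 for stroke over sham. With anti-VCAM1, 2 of 12 were higher: Selplg, the P-selectin ligand, at 109 CPM in stroke and 220 with anti-VCAM1, a ratio of 1.01 (0.39 to 1.64), and Cd44, a hyaluronan receptor, at 1.06 (0.39 to 1.74), with 60.5% of its anti-VCAM1 UMIs in 1 cell. With anti-VLA4, 1 of 12 was higher (Vcam1). Of the growth factor and repair genes, 2 of 7, 1 of 5 and 1 of 5 were lower. For both antibody comparisons that 1 gene was Retnla, with 99.2% of its 119 stroke UMIs in 1 cell and 0 UMIs in either antibody library.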

How the data were processed

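Droplet libraries were made with 10x 3' chemistry, per the labels' protocols. The deposited counts are UMIs per gene and cell barcode. Per the file headers they are the output of Cell Ranger 7.0.1, whereas the submitters' processing notes name Cell Ranger 6.0.0 and Seurat 4.3.0.1 and list the builds mm10 and GRCh38 with no role. Which of these builds the matrices were counted on is not given in the sources used here. Kept cells had at least 500 UMIs, 200 genes and at most 10% mitochondrial UMIs. Cells with immune transcripts had at least 5 UMIs over Ptprc, Tyrobp, Fcer1g, Coro1a and Laptm5 and fewer than 10 over the endothelial genes of the rule.

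Member UMIs were summed per library and scaled to CPM, so deeper cells weigh more. The 95% intervals are exact Poisson for CPM, exact Clopper-Pearson for shares and conditional binomial for log2 ratios, whose pseudocount was 1 CPM. UMIs here mark molecules, and the intervals cover counting error only. Software was scanpy 1.11.5 (with Scrublet at an expected doublet rate of 0.05), scipy 1.17.1, pandas 2.3.3 and numpy 2.4.6 under Python 3.11.15, and the calculations were tested on simulated data.

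The members and the 25 gene lists were chosen with earlier results of these data known. Named genes were the 10 highest and 10 lowest ratios per comparison (15 for members over MHC class II low cells). They needed 100 UMIs, a UMI in 15% of members of the higher library and under 10 times the CPM in other cells, and up to 3 genes per list were added. Genes named otherwise, to account for small counts or such as Apoe, Maf, Stab1, Cxcl16 and Iigp1, were chosen after their values were seen.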

Additional observations from a re-analysis of the deposited data

How the results depend on the processing

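No paired analysis was possible because each group was 1 library. Without replicates, every ratio compares libraries, and 25 to 61 members per library limit precision, since 1 cell can hold most UMIs of a gene. Over cells with immune transcripts, the log2 ratios of the member share were -1.14 for anti-VCAM1 and -1.15 for anti-VLA4 over stroke, against -2.01 and -1.99 over kept cells. The settings included thinning, scaling by median ratios, a pseudocount of 10 CPM, other thresholds of the rule and leaving out groups of members. Settings chosen after seeing the data left out shared barcodes, their shallower copies or members under 2000 UMIs, or set groups at 0 to 3 counts.

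Counts of genes past the fold depended on the setting. Higher and lower genes for stroke over sham (26 and 127) were 10 and 15 after thinning, 2278 and 2414 with no minimum, and 4 and 19 with a minimum of 200 UMIs. Lower genes were 67 without each gene's highest cell, 69 without members with 3 or more UMIs of the narrower dendritic set and 83 without those with lymphocyte markers. For anti-VCAM1 (30 and 80) they were 10 and 13 after thinning, 1731 and 3602 with no minimum, and 4 and 4 with 200 UMIs. Higher genes were 56 with cells weighted equally and 14 without the highest cell. For anti-VLA4 (40 and 51) they were 10 and 14, 1788 and 3184, and 4 and 8 in the same order, and higher genes were 19 without the highest cell. Thinning or a minimum of 200 UMIs tests fewer genes. Members over MHC class II low cells gave 158 higher and 203 lower genes of 1956 genes after thinning, against 283 and 474 of 5269, and 246 to 341 and 384 to 512 when 1 library was left out.

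Of 71 named ratios past the fold, 5 changed sign in a setting, all for stroke over sham in genes held mostly by 1 sham cell. Of 120 named ratios not past it, 36 changed sign, among them Hexa for stroke over sham, at 0.59 and at -0.54 after thinning. Without members with lymphocyte markers, the ratios were 0.39 for Ifit3, 2.03 for Cxcl10 and 0.52 for Ifit2. S100a9 was at 2.96 without its highest cell, 3.50 without dendritic-marker members, 3.62 without lymphocyte-marker members and 3.33 without shared barcodes, where S100a8 was at 0.050. Of the other values of single genes, 3033 stayed within their interval and 249 moved beyond it.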
